A study of Mus musculus with 12 samples.

Results

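Caveolae are flask-shaped pits of the plasma membrane, rich in cholesterol. Their coat is built from caveolins, which sit in the inner leaflet, and cavins, which assemble on them from the cytoplasm, while EHD2 and the PACSINs act at the neck of the pit. Caveolae are plentiful in endothelium, adipocytes, muscle and fibroblasts and are seldom seen in neurons. Flotillins form raft domains of their own, apart from caveolae, and are abundant in neurons and glia. The 10 genes described here code for the 3 caveolins (Cav1, Cav2, Cav3), 3 cavins (Cavin1, Cavin2, Cavin3), the 2 flotillins (Flot1, Flot2) and the neck proteins Ehd2 and Pacsin2. They were chosen by name, with earlier results of these data known. Of the 10 genes, 9 have a probe set that the array annotation gives to them alone, 19 probe sets in all, among 18193 genes measured. Pacsin2 was not analysed here. Each gene is represented by its probe set of highest mean over the 12 arrays, and the other probe sets are given beside it.

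Total RNA from CD1 mice was measured on Affymetrix Mouse Genome arrays, in 3 groups of 4 biological replicates, all from the superior cervical ganglion (SCG), which supplies sympathetic nerves to the head. In the 3D group dissociated SCG cells had grown for 5 days in porous polystyrene scaffolds, and in the 2D group on a flat dish, both coated with collagen and kept in serum with nerve growth factor. The third group was freshly dissected SCG tissue, which the study used as the stand-in for the animal. By the labels the mice were 21 days old and the flat dish was polystyrene; by the methods they were neonatal and the dish had a glass bottom. About 2 ganglia were pooled for a dish or scaffold, and the methods describe no step that selected neurons, so the cultures are mixtures of cell types. A level below is the RMA value on the log2 scale, so that a difference of 1 is 2-fold. It depends on the probes as well as on the RNA, and levels are compared here between groups and not between genes. In such bulk samples fewer cells of a type and less RNA per cell cannot be told apart. Pairs of groups were compared with limma, with p adjusted over 45037 probe sets and called below 0.05. An exact permutation test, two-sided, over the 70 divisions of 8 arrays is given beside it for some genes, and its smallest p is 0.0286.

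Some arrays stood apart. Control probe sets at the 3′ and 5′ ends of Gapdh and Actb measure how complete the labelled RNA is. The 3′ end exceeded the 5′ end by 0.36 to 1.27 (Gapdh) and 1.12 to 1.89 (Actb) on the culture arrays and by 1.0 to 1.1 and 1.63 to 2.21 on tissue replicates 1 and 4, but by 3.05 to 3.45 and 3.55 to 4.21 on tissue replicates 2 and 3. Of the listed markers, the mean of 9 sympathetic neuron genes, led by Prph, Dbh and Stmn2, was 11.11 to 11.94 in 3D, 10.61 to 12.36 in 2D and 10.91 to 12.94 in tissue. These means lay above the arrays' medians (6.34 to 6.53) in each group, and the share of neuronal RNA was not measured. The lowest 2D value was that of 2D replicate 4.

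The upstream sequences of 4 of the genes are shown first. Cav1 and Cav2 are neighbours on the chromosome, with 0 annotated genes between them, and Cavin1 and Cavin2 moved in opposite directions against tissue. Each run is the 250 bases before the annotated start in RefSeq (mouse GRCm38.p6), 5′ to 3′ on the gene's own strand, and where the table lists more than 1 start for a gene the first listed is shown. Capitals mark a match on either strand to the GC box (GGGCGG), the CCAAT box (CCAAT) or the TATA box (TATAAA).
Cav1 chr6:17306085-17306334 (+ strand): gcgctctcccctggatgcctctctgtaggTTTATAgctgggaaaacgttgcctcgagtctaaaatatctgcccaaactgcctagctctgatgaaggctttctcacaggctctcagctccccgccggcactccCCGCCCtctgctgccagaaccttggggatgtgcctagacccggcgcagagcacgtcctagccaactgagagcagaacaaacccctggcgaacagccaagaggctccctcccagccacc
Cav2 chr6:17280935-17281184 (+ strand): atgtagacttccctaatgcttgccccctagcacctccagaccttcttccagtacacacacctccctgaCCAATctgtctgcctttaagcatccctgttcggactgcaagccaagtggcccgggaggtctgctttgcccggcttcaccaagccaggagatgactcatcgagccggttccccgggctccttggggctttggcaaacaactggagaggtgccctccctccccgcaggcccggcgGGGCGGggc
Cavin1 chr11:100970618-100970867 (- strand): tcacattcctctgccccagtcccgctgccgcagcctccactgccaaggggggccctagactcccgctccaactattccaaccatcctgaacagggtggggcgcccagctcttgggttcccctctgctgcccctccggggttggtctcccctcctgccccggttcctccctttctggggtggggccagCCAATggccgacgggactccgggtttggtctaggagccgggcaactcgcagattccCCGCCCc
Cavin2 chr1:51288876-51289125 (+ strand): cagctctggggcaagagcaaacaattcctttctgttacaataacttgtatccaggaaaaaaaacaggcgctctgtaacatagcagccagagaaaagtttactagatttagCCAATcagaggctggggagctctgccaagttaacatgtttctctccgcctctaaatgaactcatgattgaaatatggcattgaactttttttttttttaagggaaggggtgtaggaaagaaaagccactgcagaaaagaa
The Cav1 window has a GC box from -118 and a TATA box from -221, both on the reverse strand. A second annotated Cav1 start lies further downstream, and its window holds 0 of these motifs. The Cav2 window has a CCAAT box and, just before the start, a GC box. Cavin1 has the same pair of motifs, and Cavin2 has a CCAAT box alone. Of 32851 mouse promoter windows of this length, 32.7% hold a GC box, 33.8% a CCAAT box and 12.4% a TATA box. The CArG box, to which serum response factor binds, was searched for in the same way and is in 1.47% of all windows and in none of the 4 shown. Of the 10 genes, 8 have a window in the table used. A match is a run of letters and not a proven site.

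Between 3D and 2D cultured cells 0 of the 9 genes passed limma's test. Over all genes 0.0165% passed as higher in 3D and 0% as lower, so the count of 0 is near the background. At an unadjusted p under 0.05 there was 1 gene, Cavin1, where 13.1% of all genes lay below that p in either direction. The methods' t-test gave 0 of the 9 with and without adjustment, where 0% and 11.6% of all genes passed. The median difference of the 9 genes was 0.03, against 0.01 for all genes. The plot of levels by array shows where each array lies.

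**Figure D1:**
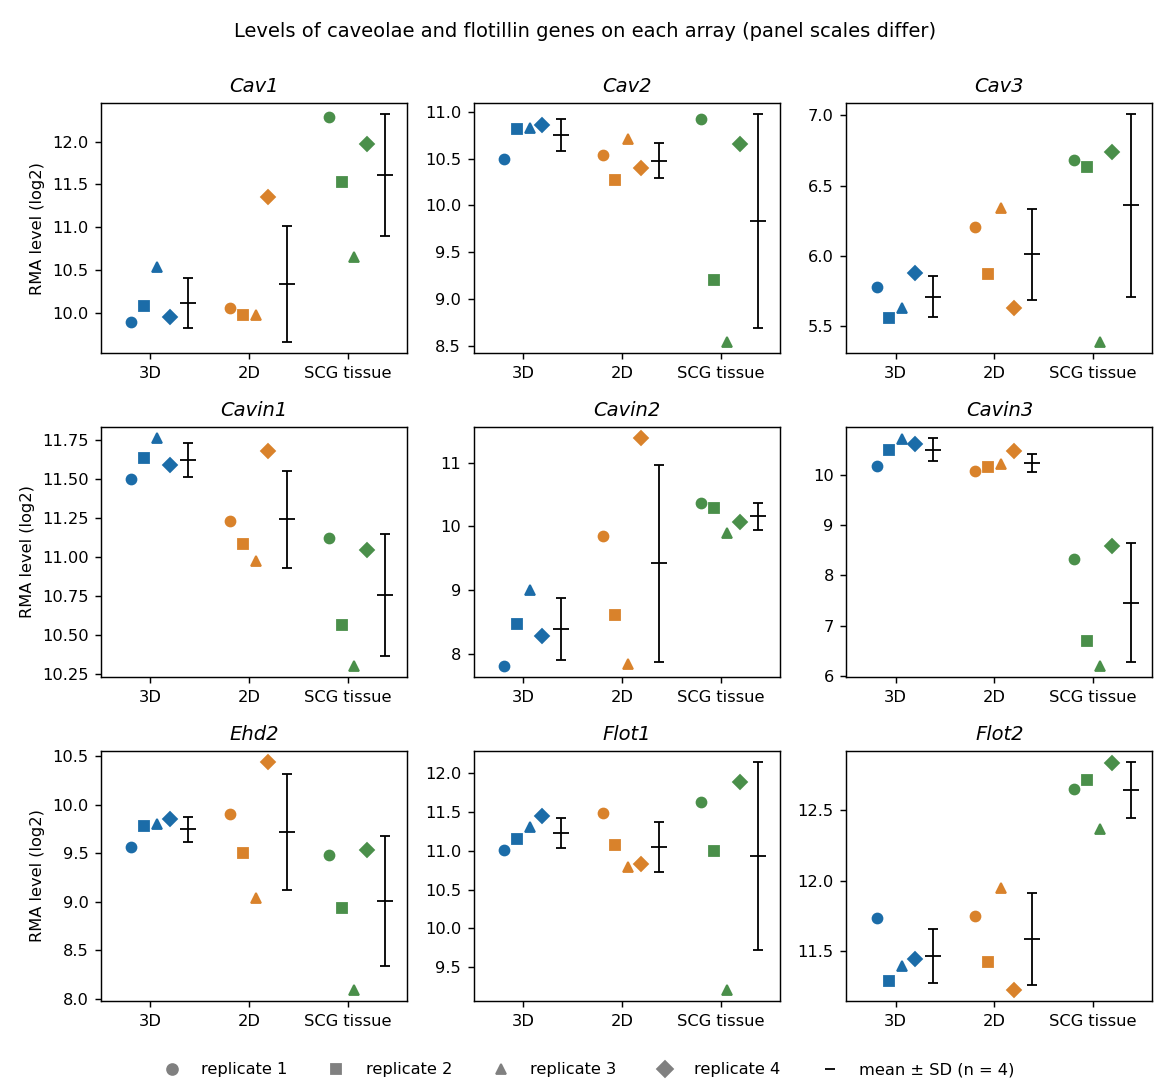
RMA level (log2, vertical axes) of the 9 genes on each of 12 arrays, 3D cultures at the left, 2D cultures in the middle and SCG tissue at the right of each panel. Marker shapes give the replicate, and the black bars are the mean ± SD (n = 4). Cavin3 is above 10 on all 8 culture arrays and at most 8.59 on all 4 tissue arrays, Cav1 and Flot2 are highest in tissue, and Cavin2 spreads over 7.85 to 11.38 in 2D.

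Cav1 was lower in 3D cultures than in tissue, and no difference between 3D and 2D was detected. Cav1 codes for caveolin-1, the main structural protein of caveolae outside striated muscle. It read 9.89, 10.08, 10.54 and 9.95 on the 3D arrays, 10.05, 9.97, 9.97 and 11.35 on the 2D arrays, and 12.29, 11.53, 10.65 and 11.97 on the tissue arrays. All 3D arrays read below all tissue arrays, while 2D replicate 4 read above tissue replicate 3. Against tissue, 3D was lower by 2.82-fold (log2 difference -1.5, with a standard error of 0.33 and an adjusted p = 0.00916 by limma, exact permutation p = 0.0286). Against 2D the log2 difference of 3D was -0.22 (95% confidence interval -0.93 to 0.49, adjusted p = 0.823), and its direction turned to 0.12 without 2D replicate 4 (adjusted p = 0.759). The log2 difference of 2D from tissue was -1.27 (standard error 0.42, adjusted p = 0.0568, exact permutation p = 0.0571), just short of the threshold. Without 2D replicate 4 it was -1.61 (adjusted p = 0.0263), and without tissue replicates 2 and 3 it was -1.80 (adjusted p = 0.0287).

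Cav2, whose product forms hetero-oligomers with caveolin-1 and needs it to reach the cell surface, did not pass in any comparison. Its probe set read 10.50, 10.82, 10.83 and 10.86 on the 3D arrays, 10.54, 10.27, 10.71 and 10.40 on the 2D arrays, and 10.92, 9.20, 8.54 and 10.66 on the tissue arrays. The cultures lay close together, and tissue replicates 2 and 3, those with the large 3′ excess, read far below tissue replicates 1 and 4. The log2 difference was 0.27 for 3D against 2D (adjusted p = 0.441), 0.92 for 3D against tissue (95% confidence interval -0.17 to 2.02, adjusted p = 0.164) and 0.65 for 2D against tissue (adjusted p = 0.332). With tissue replicates 2 and 3 left out the last pair were -0.04 (adjusted p = 0.851) and -0.31 (adjusted p = 0.214). A dim second probe set, with a mean of 5.99, had log2 differences of -0.23 for 3D against tissue and -0.35 for 2D against tissue, with adjusted p = 0.180 and 0.105. On the same arrays, then, neighbouring Cav1 fell in 3D against tissue and Cav2 did not pass; whether the 2 changes differ was not tested.

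Cav3 is the caveolin of skeletal and heart muscle. Its probe set read 5.78, 5.56, 5.63 and 5.88 on the 3D arrays, 6.21, 5.87, 6.34 and 5.63 on the 2D arrays, and 6.68, 6.63, 5.39 and 6.74 on the tissue arrays. The arrays' medians ran from 6.34 to 6.53. All culture arrays and tissue replicate 3 read Cav3 below their own median, and tissue replicates 1, 2 and 4 read it somewhat above, so Cav3 is a dim signal. The log2 difference was -0.65 for 3D against tissue (adjusted p = 0.113), -0.35 for 2D against tissue (adjusted p = 0.422) and -0.30 for 3D against 2D (adjusted p = 0.515). Tissue replicate 3 alone read below the cultures, and without it Cav3 was lower in 3D by 0.97 on the log2 scale (adjusted p = 4.42e-04) and in 2D by 0.67 (adjusted p = 0.0363). The mean of 10 skeletal muscle genes was 5.07 to 5.20 in 3D, 5.08 to 5.29 in 2D and 5.22, 8.88, 7.32 and 8.93 on tissue replicates 1 to 4. Cav3 read 6.63 and 6.74 on tissue replicates 2 and 4, where the muscle genes were highest, and 6.68 on tissue replicate 1, where they were near the level of the cultures, while tissue replicate 3 had raised muscle genes and a Cav3 level of 5.39. The part of muscle RNA in the level of Cav3 was not tested.

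Cavin3 had the largest difference of the 9 genes and was the one that rose in both cultures against tissue. Its product (formerly PRKCDBP or SRBC) binds protein kinase C delta and helps carry caveolin-1 vesicles through the cell. The probe set read 10.18, 10.50, 10.70 and 10.61 on the 3D arrays, 10.07, 10.16, 10.21 and 10.48 on the 2D arrays, and 8.33, 6.70, 6.20 and 8.59 on the tissue arrays. Every culture array read higher than every tissue array. Cavin3 was 8.24-fold higher in 3D than in tissue (log2 difference 3.04, standard error 0.50, adjusted p = 0.00223) and 6.84-fold higher in 2D than in tissue (log2 difference 2.77, standard error 0.50, adjusted p = 0.00664). Tissue replicates 2 and 3 again read lowest, and without them the log2 differences were 2.04 for 3D (adjusted p = 4.08e-05) and 1.77 for 2D (adjusted p = 0.00144). Between 3D and 2D the log2 difference was 0.27 (95% confidence interval -0.04 to 0.57, adjusted p = 0.489).

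Cavin1, which every caveola needs to form, rose in 3D against tissue. Its probe set read 11.5, 11.63, 11.76 and 11.59 on the 3D arrays, 11.23, 11.08, 10.97 and 11.68 on the 2D arrays, and 11.12, 10.56, 10.30 and 11.04 on the tissue arrays. The 3D arrays lay close together and above all tissue arrays. The log2 difference of 3D from tissue was 0.86 (1.82-fold, standard error 0.20, adjusted p = 0.0102, exact permutation p = 0.0286). Without tissue replicates 2 and 3 it was 0.54 (adjusted p = 0.00364), and with cyclic loess 0.42 (adjusted p = 0.0276). For 2D against tissue it was 0.48 (95% confidence interval -0.05 to 1.02, adjusted p = 0.155), where 2D replicates 2 and 3 read between the tissue arrays. Against 2D, 3D was at 0.38 (unadjusted p = 0.0327 and adjusted p = 0.387 from limma, exact permutation p = 0.114). Both dimmer probe sets of Cavin1, with means of 4.7 and 5.6, read higher in the cultures on average, and 1 of them passed for 2D against tissue (log2 difference 0.61, adjusted p = 0.0301).

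Cavin2, which binds phosphatidylserine and curves the membrane of the pit, went the other way. Its probe set read 7.82, 8.47, 9.0 and 8.29 on the 3D arrays, 9.85, 8.62, 7.85 and 11.38 on the 2D arrays, and 10.37, 10.29, 9.90 and 10.07 on the tissue arrays. Tissue was even and 3D lay wholly below it, whereas 2D ran from the level of the lowest 3D array to above all tissue arrays. Cavin2 was 3.39-fold lower in 3D than in tissue (log2 difference -1.76, standard error 0.24, adjusted p = 8.74e-04, exact permutation p = 0.0286). It passed under each of the 23 alternatives tried, with log2 differences of -2.17 to -1.42. Tissue replicates 2 and 3 did not stand apart on this probe set. For 2D against tissue the log2 difference was -0.73 (95% confidence interval -2.19 to 0.73, adjusted p = 0.405) and for 3D against 2D it was -1.03 (95% confidence interval -2.57 to 0.51, adjusted p = 0.601). Without 2D replicate 4 these were -1.38 (adjusted p = 0.0679) and -0.38 (adjusted p = 0.734). A second probe set of Cavin2 fell in 3D against tissue too (log2 difference -1.58, adjusted p = 4.30e-04). Another, which may also bind other transcripts, was at -0.90 (adjusted p = 0.107). That probe set read 8.42, 7.64, 7.03 and 8.50 on tissue replicates 1 to 4, so replicates 2 and 3 were low there. Its log2 difference of 2D from tissue was 0.21 (adjusted p = 0.813), opposite in sign to the brightest probe set.

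Ehd2 codes for an ATPase that forms rings at the neck of caveolae and holds them at the surface. The probe set read 9.56, 9.78, 9.80 and 9.85 on the 3D arrays, 9.90, 9.50, 9.04 and 10.44 on the 2D arrays, and 9.48, 8.93, 8.09 and 9.53 on the tissue arrays. The 3D arrays did not overlap with tissue, but by a margin of 0.03 between 3D replicate 1 and tissue replicate 4. The log2 difference of 3D from tissue was 0.74 (standard error 0.30, adjusted p = 0.0838, exact permutation p = 0.0286), of 2D from tissue 0.71 (adjusted p = 0.191) and of 3D from 2D 0.03 (95% confidence interval -0.57 to 0.62, adjusted p = 0.978). Ehd2 has 5 probe sets, and they disagree for 3D against tissue. One with a mean of 8.85 was higher in 3D (log2 difference 0.91, adjusted p = 0.0278), one with a mean of 3.52 was lower (-0.53, adjusted p = 0.0490) and one with a mean of 9.08 was at -0.46 (adjusted p = 0.0747). No direction is given for Ehd2 on that account.

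**Figure D2:**
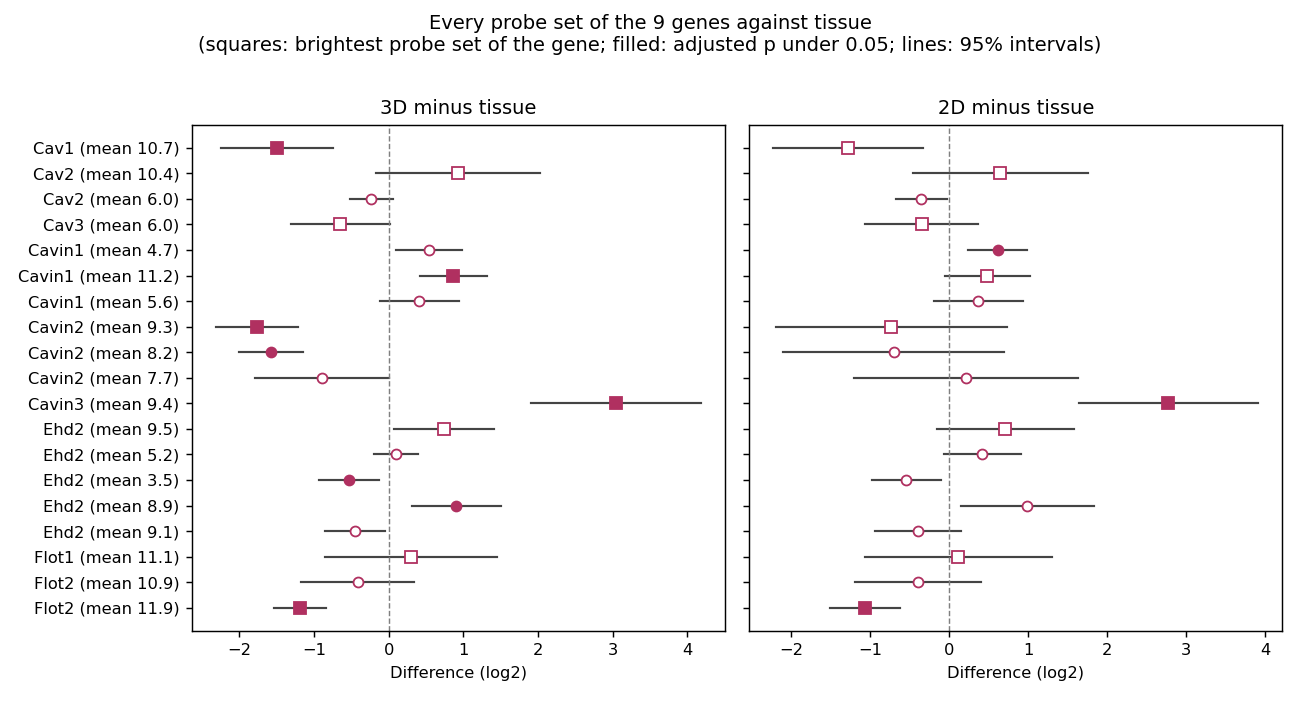
Log2 difference (horizontal axes) of 3D cultures from tissue at the left and of 2D cultures from tissue at the right for all 19 probe sets, each named by its gene and its mean level over 12 arrays. Squares are the brightest probe set of a gene, filled symbols have an adjusted p under 0.05 and lines are 95% confidence intervals. The Cavin2 probe sets lie left of 0 in 3D, those of Cavin1 lie right of 0, and those of Ehd2 lie on both sides.

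Flot1 and Flot2 code for flotillin-1 and flotillin-2, which oligomerise with each other. Flot1 read 11.01, 11.15, 11.30 and 11.45 on the 3D arrays, 11.49, 11.08, 10.79 and 10.83 on the 2D arrays, and 11.63, 11.00, 9.21 and 11.89 on the tissue arrays. The groups overlapped, and tissue replicate 3 read at least 1.58 below every other array. The log2 difference was 0.29 for 3D against tissue (95% confidence interval -0.86 to 1.45, adjusted p = 0.666), 0.12 for 2D against tissue (adjusted p = 0.881) and 0.18 for 3D against 2D (adjusted p = 0.714). Without tissue replicate 3 the difference of 3D from tissue was -0.28 (adjusted p = 0.331), and without tissue replicates 2 and 3 it was -0.53 (adjusted p = 0.0176). With all arrays kept the sign turned too, to -0.15 with cyclic loess (adjusted p = 0.749), so no direction is given for Flot1 against tissue.

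Flot2 was lower in both cultures by its brighter probe set and not by the other. The brighter one, of a design that may also bind related transcripts, read 11.73, 11.28, 11.39 and 11.44 on the 3D arrays, 11.75, 11.42, 11.95 and 11.22 on the 2D arrays, and 12.65, 12.72, 12.37 and 12.84 on the tissue arrays. Every tissue array read above every culture array. Flot2 was 2.27-fold lower in 3D than in tissue (log2 difference -1.19, standard error 0.15, adjusted p = 6.73e-04) and 2.08-fold lower in 2D than in tissue (log2 difference -1.06, standard error 0.20, adjusted p = 0.00727). The second probe set read 10.89, 10.70, 10.78 and 10.81 on the 3D arrays, 11.07, 10.78, 10.93 and 10.49 on the 2D arrays, and 11.41, 11.32, 10.14 and 11.98 on the tissue arrays. There tissue replicate 3 read below all cultures, and the log2 differences were -0.42 for 3D (adjusted p = 0.343) and -0.40 for 2D (adjusted p = 0.409).

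In all, 2 of 9 genes (Cavin1, Cavin3) rose and 3 (Cav1, Cavin2, Flot2) fell in 3D against tissue. Over all genes 20.1% passed as higher and 15.5% as lower, so with 9 genes such counts are not far from the background. For 2D against tissue 1 gene rose (Cavin3) and 1 fell (Flot2), where 14.3% and 9.87% of all genes passed. The median log2 difference of the 9 genes was 0.30 for 3D against tissue and 0.12 for 2D against tissue, and that of all genes was -0.03 in both. Both comparisons share the tissue arrays. The caveolins and cavins did not move as 1 group against tissue, since of the 3 cavins 2 rose and 1 fell in 3D. Without tissue replicates 2 and 3, 7 genes passed for 3D against tissue, the same 5 with Cav3 and Flot1 as lower, and 3 for 2D against tissue, with Cav1 added as lower. In that setting 24.6% of all genes passed as higher and 22.7% as lower for 3D, and 12.3% and 10.1% for 2D. Without 2D replicate 4 and 3D replicate 1, 2 genes passed for 3D against 2D, both higher in 3D. They were Cavin1 (log2 difference 0.57, adjusted p = 0.0281) and Cavin3 (0.46, adjusted p = 0.0401). In that setting 2.45% of all genes passed as higher and 5.01% as lower. By root mean square difference over all probe sets, 2D replicate 4 lay nearer to 3D replicates 2, 3 and 4 (0.343, 0.323 and 0.340) than to any 2D array (0.441 to 0.565). 3D replicate 1 lay nearest to 3D replicate 4 (0.263), and nearer to 2D replicate 1 (0.307) than to 3D replicates 2 and 3 (0.313 and 0.354). Leaving out arrays that resemble the other group widens the gap between groups by itself.

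**Figure D3:**
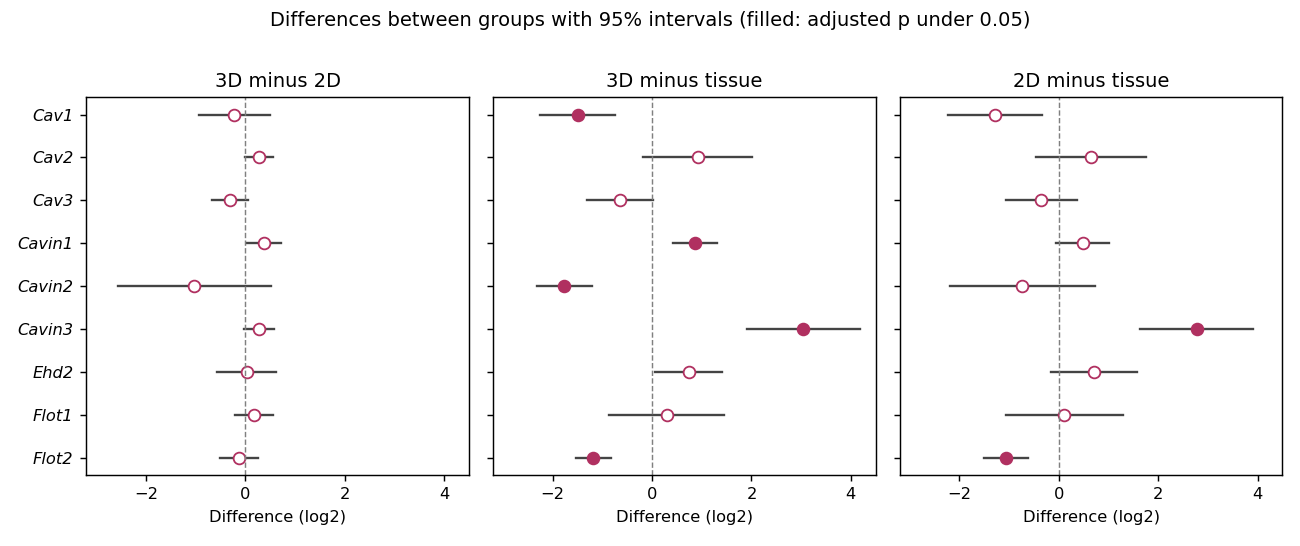
Log2 difference (horizontal axes) of the 9 genes for 3D minus 2D, 3D minus tissue and 2D minus tissue, with 95% confidence intervals from limma. Filled points have an adjusted p under 0.05, which 0, 5 and 2 genes have in the 3 panels. The interval of Cavin2 is the widest of those for 3D minus 2D, from -2.57 to 0.51.

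Much of the spread of the caveolae genes in 2D came with 2D replicate 4. That array read highest of the 2D arrays for 5 of 9 genes (Cav1, Cavin1, Cavin2, Cavin3 and Ehd2), as it did for 30.4% of all genes. On it the mean of the sympathetic neuron list was 10.61, against 12.11 to 12.36 on the other 2D arrays, that of 10 smooth muscle and pericyte genes 9.61, against 8.53 to 9.13, and that of 8 macrophage genes 9.25, against 6.29 to 8.17. The summed linear level of the macrophage list was 3846 to 5264 in 3D, 1119 to 11101 in 2D and 3931 to 7147 in tissue, and that of the smooth muscle list 8442 to 13355 in 3D, 12167 to 30461 in 2D and 7071 to 8378 in tissue. Between 3D and 2D, 0 genes of these lists passed the test, where 0.0165% of all genes passed as higher and 0% as lower. Cavin2 ran with these lists also at the low end, with 7.85 on 2D replicate 3, where the macrophage list read 6.29 and the smooth muscle list 8.53. Their part in the levels of Cav1, Cavin2 and Ehd2 was not tested.

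**Figure D4:**
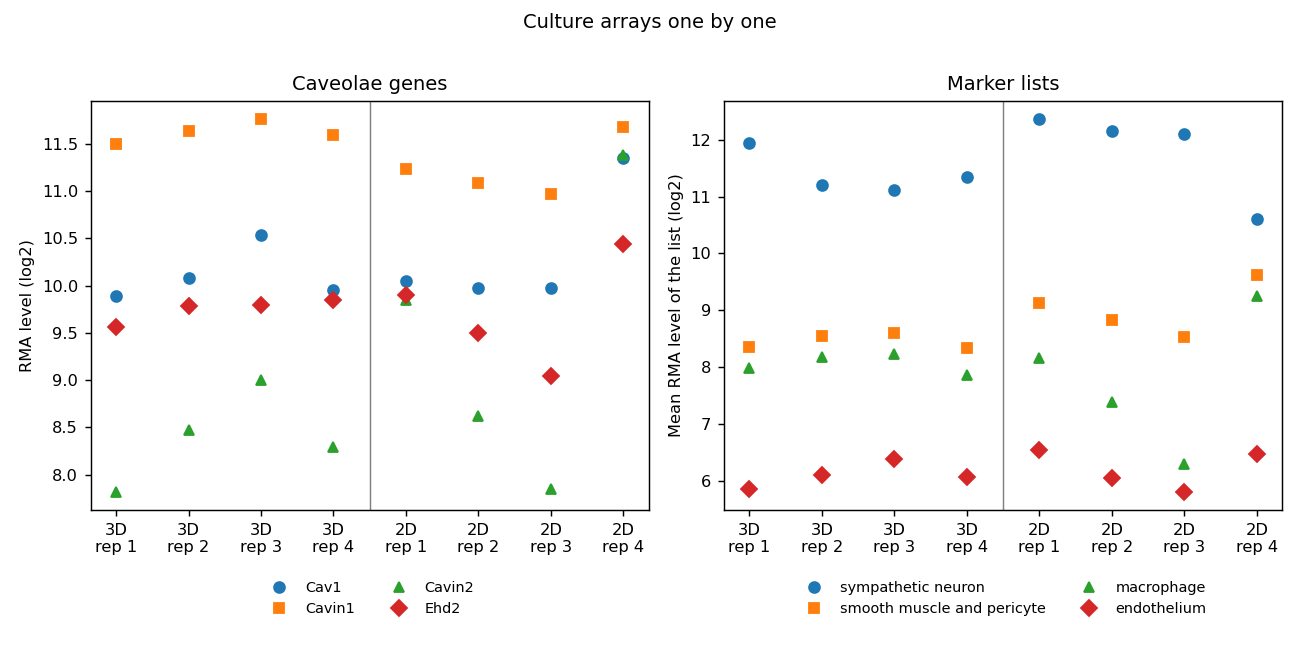
RMA level (log2) of Cav1, Cavin1, Cavin2 and Ehd2 on the left, and mean RMA level (log2) of 4 marker lists on the right, on each of 4 arrays of 3D cultures and 4 of 2D cultures. On 2D replicate 4 the 4 caveolae genes, the smooth muscle list (9.61) and the macrophage list (9.25) are at the top of the 2D arrays and the neuron list (10.61) at the bottom.

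Markers of cells that are rich in caveolae differed between cultures and tissue. For scale, 20.1% of all genes passed as higher and 15.5% as lower in 3D against tissue, and 14.3% and 9.87% in 2D. Of 9 endothelial genes 6 fell in each culture against tissue, led by Cldn5, Esam and Kdr, and 0 rose. Their mean level was 5.86 to 6.38 in 3D, 5.81 to 6.55 in 2D and 6.77 to 7.90 in tissue, and their summed linear level 746 to 1088 in 3D, 745 to 1262 in 2D and 1634 to 2833 in tissue. In the cultures Cldn5, the tight junction protein of these vessels, read 5.15 to 5.42 in 3D and 5.0 to 5.5 in 2D, below the arrays' medians, and in tissue 6.80 to 7.28. Of 5 adipocyte genes 2 fell in each culture, Fabp4 and Adipoq. Fabp4 read 5.54 to 6.87 in 3D, 6.67 to 8.42 in 2D and 10.40 to 11.36 in tissue. The summed linear level of the adipocyte list was 194 to 284 in 3D, 281 to 497 in 2D and 1643 to 3094 in tissue. Genes of other lists fell in 3D too. Of 10 skeletal muscle genes 6 fell in 3D and 3 in 2D, and 0 rose. Of 8 macrophage genes 2 rose and 5 fell in 3D, and 1 rose and 1 fell in 2D. Of the caveolae genes, Cav1 and Cavin2 fell in 3D, and Cavin1 and Cavin3 rose there. Of 8 genes of fibroblasts, another cell type with many caveolae, 1 rose and 1 fell in 3D and 1 rose and 3 fell in 2D, with Postn higher and Dpt lower in both. Of the 10 smooth muscle and pericyte genes 2 rose and 2 fell in 3D, and 3 rose and 1 fell in 2D. With lists this short, the fibroblast and smooth muscle counts in 3D are not far from the shares over all genes. Like Cavin3, Acta2, the actin of smooth muscle, rose in both cultures (log2 differences 1.75 in 3D and 2.77 in 2D), as did Pdgfrb, a growth factor receptor of pericytes and fibroblasts (1.84 and 2.12). Rgs5, a pericyte gene, fell in both (-2.51 and -2.39). The part of these cells in the results was not tested.

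All 9 genes read lowest of the tissue arrays on tissue replicate 3, as did 41.7% of all genes and 54.2% of the 13108 genes with a mean level of at least 6. This array had a Gapdh excess of 3.05 and an Actb excess of 4.21 at the 3′ end. Its SD over all probe sets was 1.93, against 2.31 to 2.42 on the culture arrays and tissue replicates 1 and 4, and 2.14 on tissue replicate 2. The drop from tissue replicate 1 differed from gene to gene, from 0.28 for Flot2 and 0.47 for Cavin2 to 2.42 for Flot1. As given above, Cav1, Cavin1, Cavin2, Cavin3 and Flot2 passed for 3D against tissue without tissue replicates 2 and 3 as well.

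**Figure D5:**
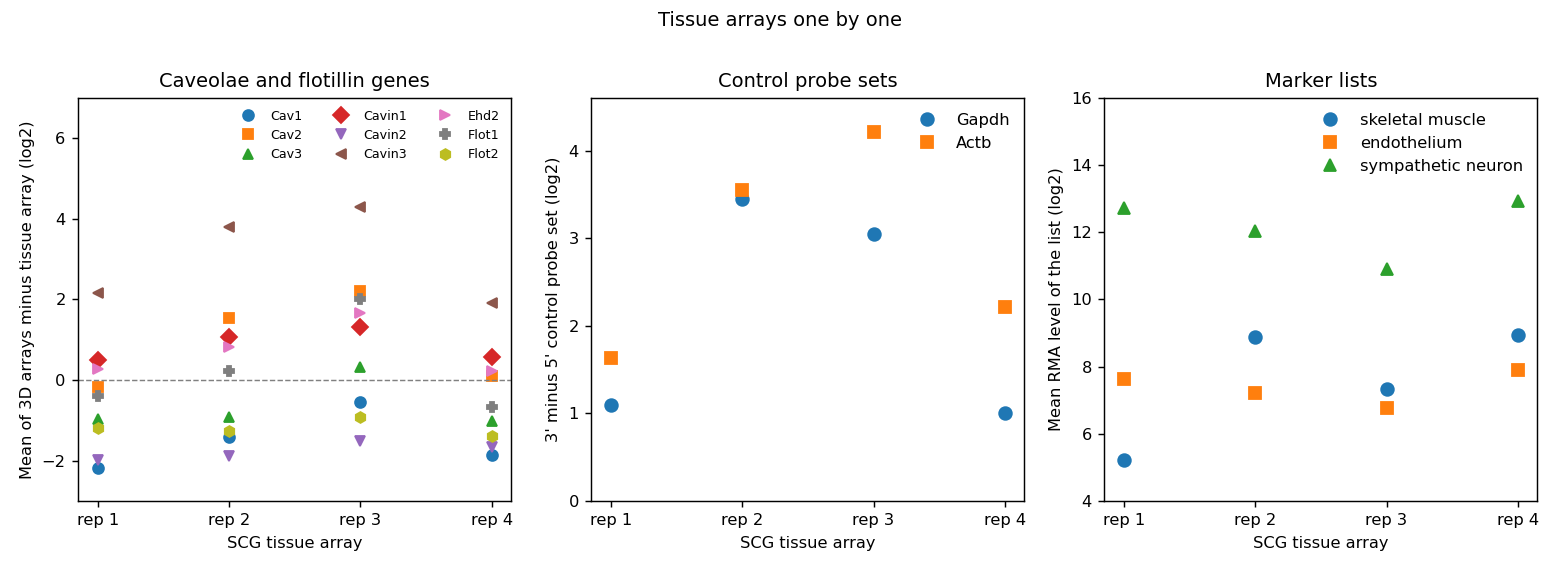
Tissue arrays one by one. At the left, the mean of the 3D arrays minus each tissue array (log2) for the 9 genes; in the middle, the 3′ minus 5′ difference (log2) of the Gapdh and Actb control probe sets; at the right, the mean RMA level (log2) of 3 marker lists. Tissue replicates 2 and 3 have the high control differences (3.05 to 4.21), while Cav1, Cavin2 and Flot2 stay below 0 and Cavin1 and Cavin3 above 0 on all 4 arrays.

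Proteins that work with caveolae were looked at beside the members. Of 13 partner genes 3 rose and 2 fell in 3D against tissue, and 2 rose and 2 fell in 2D against tissue. Over all genes 20.1% rose and 15.5% fell in 3D, and 14.3% and 9.87% in 2D, so these counts are near the background. Flna, filamin A, which ties caveolae to actin, read 11.76, 12.02, 11.85 and 12.01 on the 3D arrays, 11.37, 11.48, 10.88 and 12.09 on the 2D arrays, and 9.75, 8.92, 8.20 and 9.73 on the tissue arrays. Every culture array read above every tissue array, and the log2 difference from tissue was 2.76 in 3D (adjusted p = 3.99e-04) and 2.31 in 2D (adjusted p = 0.00457). Plvap, which forms the diaphragm across the neck of endothelial caveolae, fell, with log2 differences from tissue of -2.52 in 3D (adjusted p = 8.52e-05) and -1.86 in 2D (adjusted p = 0.00146). Pacsin1, the neuronal relative of Pacsin2, had log2 differences of -2.06 in 3D (adjusted p = 3.66e-04) and -1.5 in 2D (adjusted p = 0.0155). The other risen genes were the Src-family kinases Fyn in both cultures and Src in 3D, which were named after their values were seen. By limma Fyn had log2 differences of 1.03 in 3D (adjusted p = 0.0127) and 1.115 in 2D (adjusted p = 0.0182). Src in 3D was at 0.52, just inside the threshold (adjusted p = 0.0495 by limma, exact permutation p = 0.0857). Its 3D and tissue arrays overlapped. Between 3D and 2D 0 of the 13 passed, where 0.0165% of all genes passed as higher and 0% as lower.

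Of 7 stomatin and prohibitin relatives of the flotillins, membrane proteins that share a domain with them, 0 passed in any comparison by limma, with median differences of -0.07, 0.03 and 0.24 for 3D against 2D, 3D against tissue and 2D against tissue. Of 9 other raft proteins 1 passed, Thy1, a surface protein of neurons held by a lipid anchor. Against tissue 20.1% of all genes passed as higher and 15.5% as lower in 3D, and 14.3% and 9.87% in 2D. Thy1 read 12.12, 11.39, 11.71 and 11.58 on the 3D arrays and 13.16, 13.08, 12.31 and 13.51 on the tissue arrays, a log2 difference of -1.31 (adjusted p = 0.00577). In 2D it read 12.55, 12.42, 12.41 and 11.83, at -0.71 from tissue (adjusted p = 0.0865). Of the 9 sympathetic neuron genes 3 also fell in 3D against tissue and 0 rose. These were Th, the rate-limiting enzyme of catecholamine synthesis (log2 difference -2.58), Elavl4, an RNA-binding protein of neurons (-1.19), and Tubb3, the neuronal tubulin (-1.07). In 2D 0 of the 9 passed, and the part of neuronal RNA in the levels of Thy1 and Pacsin1 was not tested.

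The genes nearest in profile to Cav1 and Flot1 were taken by the root mean square of the difference between the centred profiles over 12 arrays, among 13099 genes. For Cav1 they were Srgn (0.234), a proteoglycan core of blood cells and endothelium, Srpx (0.314), Ptprb (0.319), a phosphatase of endothelium, Fzd2 (0.344), a Wnt receptor, and Cx3cr1 (0.350), a chemokine receptor of macrophages. Srgn read 7.64 to 8.16 in 3D, 7.16 to 9.27 in 2D and 8.41 to 9.96 in tissue. Like Cav1, it was highest of the 2D arrays on 2D replicate 4 and lowest of the tissue arrays on tissue replicate 3. For Flot1 they were Dnajc18 (0.175), Mgat3 (0.178), Ubl3 (0.185), Mapk8ip1 (0.193) and Nfat5 (0.204), each of which read lowest on tissue replicate 3. All these genes were picked for their likeness on the same arrays. High and low arrays shared with Cav1 or Flot1 thus follow from the choice and are no separate result.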

How the data were processed

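The authors measured total RNA on Affymetrix Mouse Genome arrays and deposited 1 table of log2 expression values for 12 arrays, made with RMA in Affymetrix Expression Console (background adjustment, quantile normalization and 1 summary value per probe set), whose version the sources used here do not give. Quantile normalization hides a shift shared by most genes, and RMA values carry no detection call. No scanner files or scan dates were used, so batches were not tested. Of 45101 probe sets 64 controls were left out. Of the rest, 34945 have 1 symbol, 932 several and 9160 none here.

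Groups came from the sample titles. Each pair of groups was fitted on its 8 arrays with limma 3.58.1 (lmFit, eBayes) in R 4.3.3, with Benjamini-Hochberg adjustment over 45037 probe sets, after a check on simulated data. Precision is limited by the number of arrays. The text names every member and its probe sets, for each partner list the 3 smallest adjusted p among genes past the threshold, for each marker list leading genes, and 5 nearest profiles for Cav1 and Flot1. Members and lists were chosen with earlier results of these data known. Listed genes with no probe set of their own were not analysed here. Alternatives were 1 fit of all arrays, array weights (statmod 1.5.0), a trend with robust prior, a filter on dim probe sets, cyclic loess, centring, a replicate block, other choices of probe set, the methods' t-test, a minimum of 2-fold and leaving out arrays. Leaving out probe sets that may bind several transcripts was added after the data had been seen. Replicates are biological by their labels.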

Additional observations from a re-analysis of the deposited data

Results flagged for a closer look

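Of 27 groups of 4 arrays (9 genes in 3 groups), 3 held an array whose gap to its nearest neighbour took up more of the group's range than Dixon's critical value at the 95% level allows. Chance gives about 1 in 20 groups when the groups are independent, but the 9 genes were read on the same arrays. The share of such groups over all genes was not computed. Whether 3 of 27 is more than the background was therefore not tested. For Cav1 the array was 2D replicate 4 (11.35, against 9.97 to 10.05 on the other 2D arrays), with a gap of 0.942 of the range. For Cav2 it was 3D replicate 1 (10.50, against 10.82 to 10.86), with 0.889 of the range. For Cav3 it was tissue replicate 3 (5.39, against 6.63 to 6.74), with 0.919 of the range. 3D replicate 1 read lowest of the 3D arrays for 7 of 9 genes, where 42.1% of all genes did.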

How the results depend on the processing

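Cav1, Cavin2 and Cavin3 passed with the same direction for 3D against tissue under all 23 alternatives that give an adjusted p. For 2D against tissue Cavin3 also did so under all 23. Some alternatives keep the log2 difference by construction and can only move the call. These are 1 fit of all arrays, the trend, the dim filter, the block, the t-test and the 2-fold minimum. Cav1 and Cavin3 have 1 probe set each, so the choice of probe set cannot change their difference. Cavin1 lost its call for 3D against tissue only with a minimum of 2-fold. Flot2 lost both calls without probe sets that may bind several transcripts (-0.42 and -0.40), and that for 2D also with its probe sets averaged (-0.73, adjusted p = 0.0616) and with tissue replicate 1 alone (-1.07, adjusted p = 0.116). Cav1 passed for 2D against tissue under 10 of 23 alternatives. For 3D against 2D the count of 0 moved to 2 without 2D replicate 4 and 3D replicate 1. For 2D against tissue the count of 2 was 4 with array weights and 4 with a replicate block (Cavin3 and Ehd2 higher, Cav1 and Flot2 lower). It was 1 without probe sets that may bind several transcripts, and 2 to 4 when 1 array was left out, with 4 without tissue replicate 3. Over all 18193 genes 2597 were higher and 1796 lower as reported. These counts were 3283 and 3038 with array weights, 2643 and 1600 with a replicate block, and 2592 and 2070 without tissue replicate 3. Without probe sets that may bind several transcripts they were 2656 and 1633 of 17903. The replicate number pairs the arrays by name only: same-numbered arrays deviated together with correlations from -0.07 to 0.41. The block changed no other call of the 9 genes.

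Signs turned as follows, each without passing the threshold except where said. Cav1 in 3D against 2D ran from -0.36 to 0.12 when 1 array was left out and was 0.19 without 2D replicate 4 and 3D replicate 1. Ehd2 there was -0.087 with its probe sets averaged, -0.0825 with that of highest SD and -0.20 to 0.27 when 1 array was left out. Cav2 was -0.0375 for 3D against tissue without tissue replicates 2 and 3 and -0.17 with tissue replicate 1 alone; for 2D it was -0.31 and -0.44 in these settings and -0.22 with array weights. Flot1 for 3D against tissue was -0.31 with array weights, -0.15 with cyclic loess, -0.53 without tissue replicates 2 and 3 (adjusted p = 0.0176), -0.40 with tissue replicate 1 alone and -0.28 to 0.61 when 1 array was left out; for 2D the same settings in that order gave -0.47, -0.34, -0.71, -0.58 and -0.46 to 0.43, and centring gave -0.17. The cause was not tested beyond the arrays named.

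Of 630 values of the 9 genes under an alternative, 577 kept direction and side of the threshold, 24 passed it newly, 5 lost it and 24 changed sign. All come from the same arrays. Where an alternative keeps the log2 difference by construction the sign could not change, so the tally is no measure of separate support. Centring arrays on their bright probe sets set the median difference over all genes to -0.31 (log2) against tissue in both cultures, and 4045 genes were then lower and 2627 higher in 3D, against 2815 and 3660 as reported; for 2D 3021 were lower and 1882 higher, against 1796 and 2597. Without 2D replicate 4 and 3D replicate 1, 446 genes were higher and 911 lower in 3D against 2D, against 3 and 0 as reported.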
